A study of Homo sapiens with 6 samples.

Results

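The genes described here are FAS, 5 other receptors of the tumour necrosis factor receptor superfamily (TNFRSF10A, TNFRSF10B, TNFRSF10D, TNFRSF1A and TNFRSF1B), the adaptor FADD, the initiator caspases CASP8 and CASP10, and CFLAR, the caspase-like inhibitor of the same complex. They are 10 of the 63677 genes in the deposited table, and they hold 110 of its 215170 transcripts. Each of the 10 symbols had 1 Ensembl gene ID, and the abundance of a gene is the sum over its transcripts. The set was proposed with results of this comparison in view, among them the higher level of FAS. The values of the 10 genes are therefore a description. No p-value of theirs is given, and counts of those past a threshold stand beside the same over all genes, with nothing supported by them.

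Total RNA of KMS27, an established human line of malignant plasma cells from multiple myeloma, was depleted of ribosomal RNA and sequenced from both ends. Of the 6 libraries, 3 came from cells labelled HA-TAZ, which overexpress an HA-tagged form of the coactivator TAZ, and 3 from cells labelled wild type. The promoter of the HA-TAZ construct, the time after its delivery and whether the cells were a clone or a pool are not given in the labels. The control columns are headed scr, which none of the sample labels mentions, with the numbers 1 to 3. By elimination they were assigned to the wild type cells, and the letters a to c stand for these numbers, which tie a column to no labelled sample. Sample titles of the wild type cells carry HA, and whether these cells received a construct is not stated.

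All levels are TPM, an abundance per library that adds up to the same sum in each, which corrects for transcript length and is a share of a library, so levels of different genes can be compared within a library. WWTR1, which encodes TAZ, was at 293 to 306 TPM in HA-TAZ libraries against 1.69 to 2.69 TPM in controls. All 9 listed plasma cell markers were at 1 TPM or more in every library, and the 4 B cell and 4 T cell markers were under 1 TPM in every library. The summed plasma cell markers were at 2785 to 3217 TPM in HA-TAZ libraries against 4270 to 4825 TPM in controls. JCHAIN made up most of this sum, with means of 2457 and 3792 TPM. As deposited, 7 of the 9 markers were lower without overlap, JCHAIN among them. Of all genes averaging at least 1 TPM, 43.6% were lower without overlap as deposited and 4.41% higher. Their middle log2 fold change as deposited was −0.27, so lower values were common over all genes. The ratios of HA-TAZ over control means of the 7 lower markers ran from 0.519 (CD38) to 0.847 (XBP1), with JCHAIN at 0.648. CD38 was at 8.62 to 11.0 TPM in HA-TAZ and 18.3 to 19.5 TPM in control libraries. Whether the markers were lower by more than other genes was not tested. SDC1 overlapped, and SLAMF7 was higher, at 6.55 to 7.78 and 3.50 to 4.51 TPM. The part of the marker differences in the results below was not tested. The summed B cell markers were at 0.346 to 0.912 and 0.607 to 0.766 TPM in HA-TAZ and control libraries. The other summed lists were at 0.277 to 0.416 and 0.547 to 0.759 TPM for T cells, and 1.74 to 1.93 and 1.91 to 2.25 TPM for monocytes and macrophages, in HA-TAZ and control libraries. They were at 3.66 to 4.32 and 4.56 to 6.06 TPM for fibroblasts, and 2.78 to 3.90 and 4.98 to 6.08 TPM for epithelium.

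Death receptors carry a death domain on the inner side of the membrane. When ligand gathers FAS or the TRAIL receptors, the death domain recruits FADD, whose death effector domain in turn recruits CASP8 and CASP10. Pairs of these initiator caspases activate each other and then cut the effector caspases. CFLAR, also called c-FLIP, resembles CASP8 but lacks a working catalytic site, and it enters the same complex in a long or a short form. In B-lineage cells FAS takes part in the removal of activated cells, and FAS is a known target gene of p53 and of NF-kB.

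FAS transcripts differ in exons that decide what the receptor can do, so 2 of the exon choices in the deposited transcripts are shown first. Other deposited FAS transcripts lack further exons, which are not shown. The sequences are from GENCODE release 29 transcripts, with GRCh38 coordinates on the plus strand. The submitters' processing notes name GRCh37, so transcripts were matched by identifier without version, and the structures are those of release 29. Exon 6 of 9 encodes the stretch that crosses the membrane. It is 63 bases long, lies at chr10:89010753-89010815 and is in capitals, with 20 bases on either side in lower case. A coding transcript that skips only this exon encodes soluble FAS. The last exon can also start 19 bases earlier, at chr10:89014100-89014118. These bases are in capitals, and the coding part then ends after 699 bases in place of 1005.
FAS-204, membrane form: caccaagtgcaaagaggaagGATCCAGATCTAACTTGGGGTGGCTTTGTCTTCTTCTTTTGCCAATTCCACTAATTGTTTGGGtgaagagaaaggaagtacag
FAS-205, exon 6 skipped: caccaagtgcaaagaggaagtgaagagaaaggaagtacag
FAS-204, start of the last exon: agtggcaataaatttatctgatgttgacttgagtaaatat
FAS-202, earlier start of the last exon: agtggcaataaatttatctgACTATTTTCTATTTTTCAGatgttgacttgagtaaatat

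FAS (ENSG00000026103), the receptor of FAS ligand, was at 24.1, 25.9 and 22.1 TPM in HA-TAZ 1 to 3, and at 9.02, 7.22 and 7.93 TPM in control a to c. The lowest HA-TAZ library was well above the highest control. In such bulk RNA, fewer cells with a transcript and less of it per cell cannot be told apart. The means were 24.0 ± 1.90 and 8.06 ± 0.905 TPM (SD, n = 3 each), a ratio of 2.98. After division by a scaling factor per library (scaled TPM), the means were 26.5 ± 1.54 and 7.19 ± 0.496 (SD, n = 3 each), a ratio of 3.68. On log2(scaled TPM + 1), the log2 fold change of FAS was 1.75 with a standard error of 0.07, and 99.8% of the 22651 genes with a mean of at least 1 TPM had a smaller one. FAS had about 1776 estimated counts, from the means on a log scale over all 6 libraries in the authors' deposited table. This figure lies between the groups, so it understates HA-TAZ libraries and overstates controls. A count of that size corresponds to a counting error of 2.37%, and the error is larger in controls.

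**Figure D1:**
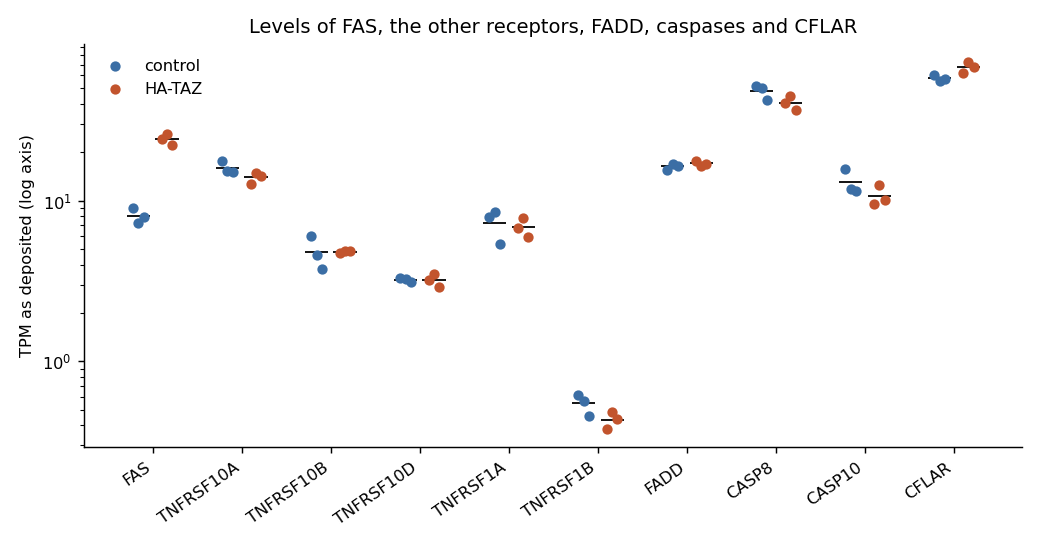
TPM as deposited of the 10 genes in each library, on a log axis. Points are libraries (blue, control; orange, HA-TAZ) and black lines are means of 3 libraries. FAS is at 22.1 to 25.9 TPM in HA-TAZ and 7.22 to 9.02 TPM in control libraries, while TNFRSF10D and FADD lie at nearly the same TPM in both groups.

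The membrane form held most of FAS in both groups. FAS-204 (ENST00000355740.2) was at 17.6, 18.4 and 15.8 TPM in HA-TAZ 1 to 3 and at 7.07, 4.95 and 5.46 TPM in control a to c, without overlap. It took 72.0 ± 1.01% of FAS in HA-TAZ libraries and 72.0 ± 5.60% in controls (SD, n = 3 each), so its share overlapped between the groups. The authors' deposited table gave this transcript an effect of 1.32 (SE 0.0897), on a natural log scale. FAS-202 (ENST00000352159.4), with the earlier start of the last exon, was at 1.52, 1.70 and 1.81 TPM in HA-TAZ libraries against 0.161, 0.749 and 0.256 TPM in controls. Its level did not overlap between the groups, but its share of FAS did, from 6.30 to 8.18% and from 1.79 to 10.4%. In the authors' deposited table its effect was 1.88 (SE 0.724.)

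The 1 coding transcript without exon 6 stayed a small part of FAS. All transcripts with exon 6 took 86.0 ± 2.76% of FAS in HA-TAZ libraries and 86.6 ± 7.80% in controls (SD, n = 3 each), with overlap. The rest lacks exon 6 and, apart from FAS-205, has no coding annotation. FAS-205 (ENST00000357339.2), which lacks exon 6, was listed at 0.335, 0.562 and 0.445 TPM in HA-TAZ libraries, at 0.245 TPM in control b, and the other controls were listed at 0. In the authors' deposited table it had about 6.4 estimated counts, a mean on a log scale over all 6 libraries. Controls at 0 pull this mean down, so it understates the HA-TAZ libraries. The share of FAS-205 in FAS was 1.39 to 2.17% in HA-TAZ libraries against 0 to 3.39% in controls. A difference in the share of FAS-205 was therefore not detectable at this depth. FAS-204 and FAS-202 were the 2 FAS transcripts with a mean of at least 1 TPM. FAS-206 (ENST00000371857.3), annotated with a retained intron and without exons 5 to 8, lay just under that level with a mean of 0.999 TPM. Its effect in the authors' deposited table was 1.39 (SE 0.318). Another 10 transcripts, FAS-205 among them, had a mean above 0 and below that of FAS-206, and 3 were listed at 0 in every library. Transcripts without a coding annotation in release 29 together took 18.8 ± 0.969% of FAS in HA-TAZ libraries and 21.5 ± 5.76% in controls (SD, n = 3 each), with overlap. ACTA2, whose gene lies opposite to FAS and overlaps it, was at 4.14 to 5.76 TPM in HA-TAZ and 6.37 to 10.9 TPM in control libraries, lower without overlap as deposited, and its groups overlapped in scaled TPM. No source used here says whether reads were assigned by strand.

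**Figure D2:**
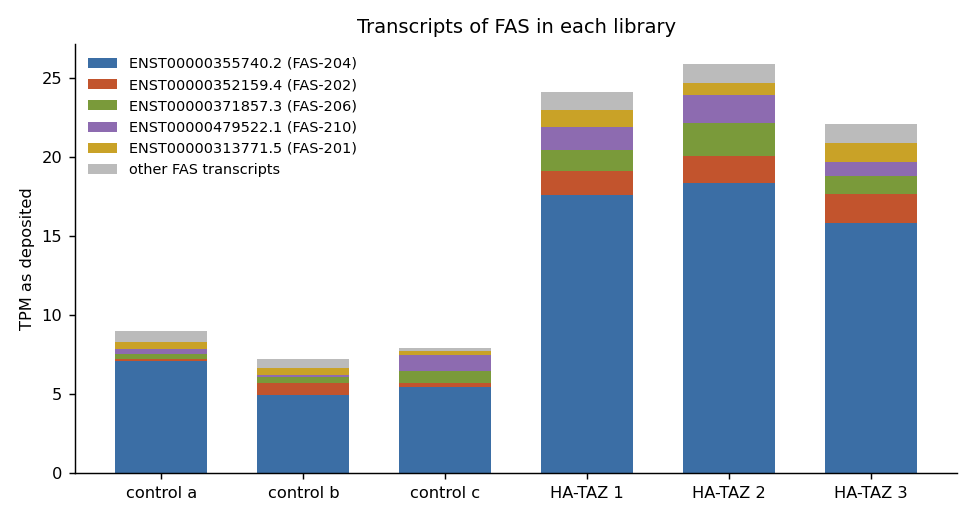
Stacked bars of TPM as deposited of FAS transcripts in each library, with the 5 highest by mean named and the other transcripts in grey. FAS-204 makes up 71.1 to 73.1% of FAS in HA-TAZ libraries against 68.6 to 78.4% in controls, while the height of the whole bar differs.

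The receptors of TRAIL lay closer together between the groups than FAS. TNFRSF10A (ENSG00000104689), which signals death through FADD, was at 12.6, 14.9 and 14.3 TPM in HA-TAZ 1 to 3 and at 17.6, 15.3 and 15.1 TPM in control a to c. The HA-TAZ libraries were lower without overlap as deposited, and overlapped the controls in scaled TPM. The log2 fold change was 0.10 (SE 0.06) after scaling and −0.19 with TPM as deposited. Its main coding transcript TNFRSF10A-201 (ENST00000221132.3) was at 9.06 to 9.37 TPM and 10.6 to 10.9 TPM, and overlapped after scaling. TNFRSF10A-202, annotated with a retained intron, and the coding TNFRSF10A-203 were at 1.79 to 3.21 and 1.43 to 2.71 TPM in HA-TAZ libraries, and overlapped the controls. TNFRSF10B (ENSG00000120889), the second death-inducing TRAIL receptor, was at 4.71, 4.82 and 4.85 TPM and at 6.05, 4.59 and 3.76 TPM, with overlap. The spread of its controls (SD 1.16 TPM) was larger than that of HA-TAZ libraries (SD 0.0749 TPM), and the means of 4.79 and 4.80 TPM were close. TNFRSF10B-201 (ENST00000276431.4), its transcript with the highest mean, was at 2.29, 2.14 and 1.83 TPM and at 1.05, 2.27 and 1.80 TPM. The coding transcripts of the gene took 59.6 to 62.1% of the gene in HA-TAZ libraries, and 57.0 and 60.4% in control b and control c but 32.6% in control a. Their summed level was 2.81 to 3.01 TPM in HA-TAZ and 1.97 to 2.62 TPM in control libraries. It was higher without overlap as deposited and in scaled TPM, while the transcripts without a coding annotation overlapped. TNFRSF10D (ENSG00000173530), a decoy receptor with a truncated death domain, was at 3.19, 3.50 and 2.92 TPM and at 3.28, 3.23 and 3.14 TPM. It overlapped as deposited, and was higher without overlap after scaling, with a log2 fold change of 0.22 (SE 0.09) that was −0.0071 with TPM as deposited.

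Of the receptors of tumour necrosis factor, TNFRSF1A lay above TNFRSF10B and TNFRSF10D in every library, and TNFRSF1B was the lowest of the 10 genes. TNFRSF1A (ENSG00000067182), which has a death domain and reaches CASP8 through TRADD, was at 6.78, 7.79 and 5.92 TPM in HA-TAZ 1 to 3 and at 7.94, 8.44 and 5.39 TPM in control a to c. The groups overlapped, and control c was the lowest library. The low value in control c came with a transcript without a coding annotation, ENST00000543359.1, which was at 0.478 TPM there, 3.86 and 3.88 TPM in control a and control b, and 1.89 to 3.00 TPM in HA-TAZ libraries. The coding transcript TNFRSF1A-201 (ENST00000162749.2) was at 2.64, 2.65 and 2.76 TPM and at 2.38, 2.82 and 2.58 TPM. All coding transcripts of the gene together overlapped as deposited. They were higher without overlap in scaled TPM, at 3.64 to 4.24 and 2.79 to 3.53 in HA-TAZ and control libraries. TNFRSF1B (ENSG00000028137), which has no death domain, was at 0.381 to 0.482 TPM in HA-TAZ libraries against 0.458 to 0.620 TPM in controls. Its mean of 0.491 TPM was below the filter of 1 TPM, so it alone of the 10 genes did not enter the fit over all genes.

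FADD (ENSG00000168040), the adaptor that links receptor and caspase, was at 17.7, 16.5 and 17.0 TPM in HA-TAZ 1 to 3 and at 15.6, 17.0 and 16.5 TPM in control a to c. The groups overlapped as deposited. After scaling FADD was higher without overlap, with a log2 fold change of 0.34 (SE 0.10), against 0.06 with TPM as deposited. FADD has 1 transcript in the table, whose effect in the authors' deposited table was 0.268 (SE 0.0776.) AP000879.1, an antisense gene that overlaps FADD, was at 2.86 to 4.51 TPM in HA-TAZ and 2.40 to 2.82 TPM in control libraries. It was higher without overlap as deposited and in scaled TPM.

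The initiator caspases overlapped between the groups under both scalings. CASP8 (ENSG00000064012) was at 40.5, 44.8 and 36.6 TPM in HA-TAZ 1 to 3 and at 51.6, 50.4 and 42.4 TPM in control a to c, with a log2 fold change of 0.06 (SE 0.08) after scaling and −0.24 with TPM as deposited. CASP10 (ENSG00000003400), its close relative, was at 9.58, 12.5 and 10.1 TPM and at 15.8, 11.8 and 11.5 TPM, with a log2 fold change of 0.03 (SE 0.10) after scaling and −0.25 with TPM as deposited. For both genes the size of the scaled difference was below its standard error. Within a library CASP8 was above CASP10 by 3.59 to 4.22 times in HA-TAZ libraries against 3.27 to 4.27 times in controls. The highest CASP8 transcript, ENST00000490682.1, has no coding annotation and was at 7.63 to 9.45 TPM in HA-TAZ and 9.79 to 14.2 TPM in control libraries, with overlap after scaling. The coding ENST00000323492.7 was at 6.96 to 9.52 and 8.65 to 11.5 TPM, and ENST00000339403.6, with a retained intron, at 3.11 to 4.30 and 4.18 to 4.93 TPM. For CASP10, the coding ENST00000286186.6 was at 1.96 to 2.47 and 2.65 to 3.31 TPM, and ENST00000471191.1, with a retained intron, at 1.41 to 2.46 and 2.47 to 5.04 TPM. Both overlapped after scaling. The coding ENST00000346817.5 was at 1.80 to 2.26 and 1.15 to 2.14 TPM, and was higher without overlap after scaling. Transcripts without a coding annotation took a large part of both genes, 40.4 ± 3.89 and 42.4 ± 3.39% of CASP8 and 42.4 ± 3.12 and 46.6 ± 4.75% of CASP10 in HA-TAZ and control libraries (SD, n = 3 each).

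CFLAR (ENSG00000003402) had the highest level of the 10 genes in every library. Its levels were 62.5, 72.5 and 68.0 TPM in HA-TAZ 1 to 3 and 60.7, 55.1 and 56.8 TPM in control a to c. The HA-TAZ libraries were higher without overlap, though HA-TAZ 1 lay close to control a. The log2 fold change was 0.52 (SE 0.05) after scaling and 0.23 with TPM as deposited. The difference was not spread evenly over CFLAR transcripts. About 8801 of 12308 estimated counts of CFLAR belonged to the long-form transcript CFLAR-201 (ENST00000309955.3), whose effect in the authors' deposited table was −0.0618 (SE 0.0505.) Its TPM was 7.22, 8.62 and 7.73 in HA-TAZ libraries and 12.3, 9.97 and 9.41 in controls, lower without overlap, and its groups overlapped in scaled TPM. The higher sum for CFLAR therefore rested on transcripts with fewer estimated counts. The transcript with the highest mean TPM, CFLAR-224 (ENST00000490965.1), has no coding annotation and was at 8.74 to 11.3 TPM and 8.24 to 10.1 TPM, with overlap as deposited and higher without overlap after scaling. CFLAR-AS1, an antisense gene that overlaps CFLAR, was at 5.20 to 8.40 TPM in HA-TAZ and 7.78 to 11.9 TPM in control libraries, with overlap. AC007283.2, a pseudogene that also lies opposite to CFLAR, was at 6.05 to 7.86 and 2.65 to 8.26 TPM. It overlapped as deposited and was higher without overlap in scaled TPM.

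The short form is shown beside the long form because its share of CFLAR differed between the groups. Both forms share the bases up to a splice junction. Behind it, the short form ends in a coding stretch of 57 bases at chr2:201141374-201141430 (GRCh38, plus strand, capitals), which the long form does not hold. The coding part of release 29 is 663 bases in the short form and 1440 bases in the long form.
CFLAR-203, short form: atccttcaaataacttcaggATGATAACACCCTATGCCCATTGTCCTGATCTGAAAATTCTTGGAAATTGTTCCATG
CFLAR-201, long form: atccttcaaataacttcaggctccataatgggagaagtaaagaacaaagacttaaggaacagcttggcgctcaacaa

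Transcripts with the coding length of the short form (CFLAR-203 and CFLAR-212) took 15.3, 14.0 and 14.9% of CFLAR in HA-TAZ 1 to 3 and 8.28, 7.56 and 10.4% in control a to c. Those with the coding length of the long form (CFLAR-201 and CFLAR-208) took 15.7, 14.9 and 15.1% and 21.3, 20.1 and 18.2%. Neither share overlapped between the groups, and a share within a gene does not depend on the scaling of a library. The lower share of the long form did not come with a lower scaled level. Its summed TPM as deposited spanned 9.79 to 10.8 in HA-TAZ and 10.3 to 12.9 in control libraries, which overlap. Scaled values of the long form were higher without overlap, from 11.2 to 11.5 against 9.75 to 10.7. The 2 forms are only a part of the coding transcripts. All 18 coding CFLAR transcripts together took 71.7 ± 1.42% in HA-TAZ libraries and 73.8 ± 3.27% in controls (SD, n = 3 each). The other coding transcripts have neither coding length and are in neither share. The short form was at 9.95 ± 0.358 TPM in HA-TAZ libraries and 5.04 ± 0.879 TPM in controls (SD, n = 3 each). The separation of the short share came with CFLAR-203 (ENST00000341222.6), at 2.84, 1.63 and 3.28 TPM in HA-TAZ libraries, listed at 0 in control a and control b and at 1.15e-09 TPM in control c. In the authors' deposited table it had about 10.01 estimated counts, against 402 for CFLAR-212. Such a count is a mean on a log scale over all 6 libraries. The controls at or near 0 pull it down, so it understates CFLAR-203 in HA-TAZ libraries. Without CFLAR-203, CFLAR-212 (ENST00000440180.1) took 10.1 to 11.8% and 7.56 to 10.4%, with overlap. Its level of 6.71 to 8.53 TPM still lay above that of the controls, 4.17 to 5.93 TPM. In the authors' deposited table, CFLAR-212 had an effect of 0.606 (SE 0.120.) Within the long form, CFLAR-208 (ENST00000423241.2) was higher, at 2.21 to 2.56 TPM against 0.646 to 1.10 TPM. These transcripts share most of their bases, so the split of reads among them is an estimate.

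**Figure D3:**
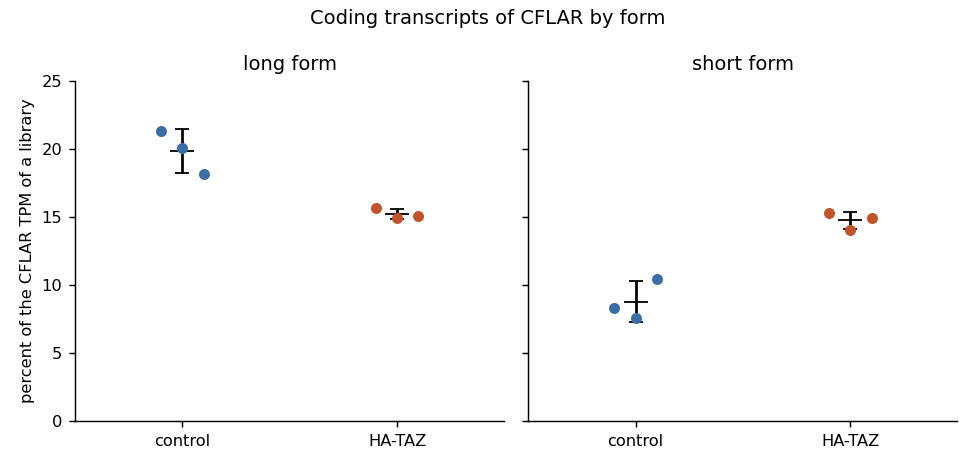
Percent of the CFLAR TPM of a library in coding transcripts of the long form and of the short form. Each form holds 2 of the 18 coding CFLAR transcripts, and the others are not shown. Points are libraries, and bars are means with SD over 3 libraries. The long form takes 14.9 to 15.7% in HA-TAZ and 18.2 to 21.3% in control libraries, and the short form 14.0 to 15.3% and 7.56 to 10.4%.

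Ratios between genes within a library are free of the scaling. FAS over TNFRSF10A was 1.91, 1.73 and 1.54 in HA-TAZ 1 to 3 and 0.512, 0.471 and 0.527 in control a to c, so the order of these receptors was turned in every library. FAS made up 46.8 to 50.02% of the summed TPM of the death receptors FAS, TNFRSF10A, TNFRSF10B and TNFRSF1A in HA-TAZ libraries against 20.3 to 24.7% in controls. FAS over its adaptor FADD was 1.36, 1.57 and 1.30 against 0.578, 0.425 and 0.480. CFLAR over CASP8 was 1.54, 1.62 and 1.86 against 1.18, 1.09 and 1.34, without overlap, while FAS over CFLAR was 0.325 to 0.386 against 0.131 to 0.149. CASP8 over CASP10 overlapped, as did CFLAR over FADD, at 3.54 to 4.38 and 3.25 to 3.89.

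**Figure D4:**
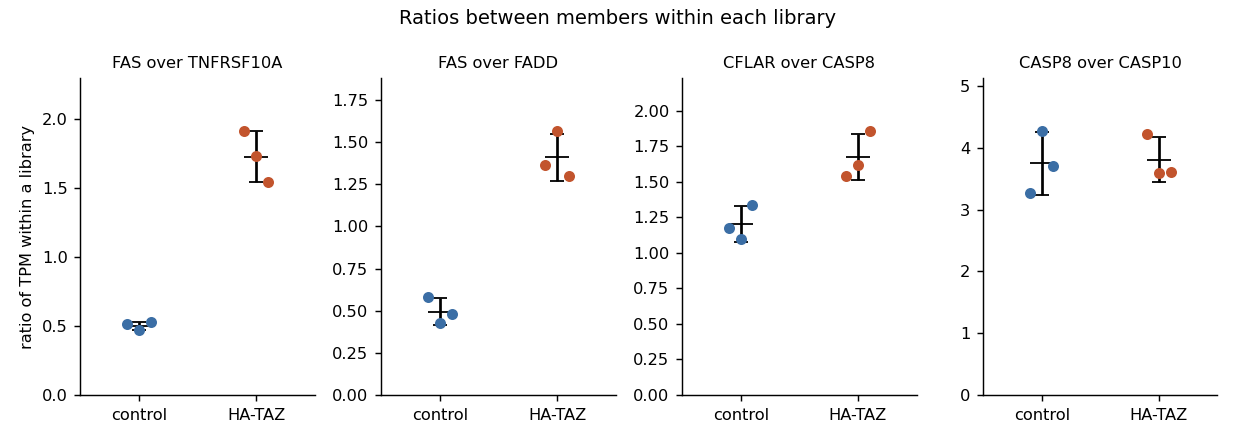
Ratios of TPM between pairs of genes within each library. Points are libraries, and bars are means with SD over 3 libraries. FAS over TNFRSF10A is 1.54 to 1.91 in HA-TAZ and 0.471 to 0.527 in control libraries, FAS over FADD and CFLAR over CASP8 are also higher without overlap, and CASP8 over CASP10 overlaps.

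In the order of levels, CFLAR came first and CASP8 second in all 6 libraries, and TNFRSF10B, TNFRSF10D and TNFRSF1B were the last 3 in all of them. FAS held rank 3 in every HA-TAZ library, and rank 6 or 7 in controls, where it and TNFRSF1A traded places and their ranges overlapped. In controls TNFRSF10A and FADD overlapped as well, at 15.1 to 17.6 and 15.6 to 17.0 TPM.

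Some of the small differences changed sign with the scaling. Over the tested genes, the middle log2 fold change (the median) was −0.27 with TPM as deposited and −0.03 after scaling. FAS, CFLAR, FADD and TNFRSF10B were positive under each setting run, and TNFRSF10A, TNFRSF10D and TNFRSF1A were negative with TPM as deposited. CASP8 was negative with TPM as deposited and, at −6.24e-04, with factors from genes of at least 5 TPM. CASP10 was negative in 5 of 13 settings, which were these scalings and the fits without HA-TAZ 2, control b or control c. Relative to the median of all tested genes, FAS stood at 1.77 after scaling and 1.74 as deposited, and CFLAR at 0.55 and 0.50. For the other 7 genes in the fit these relative values ran from 0.05 (CASP10) to 0.37 (FADD) after scaling.

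**Figure D5:**
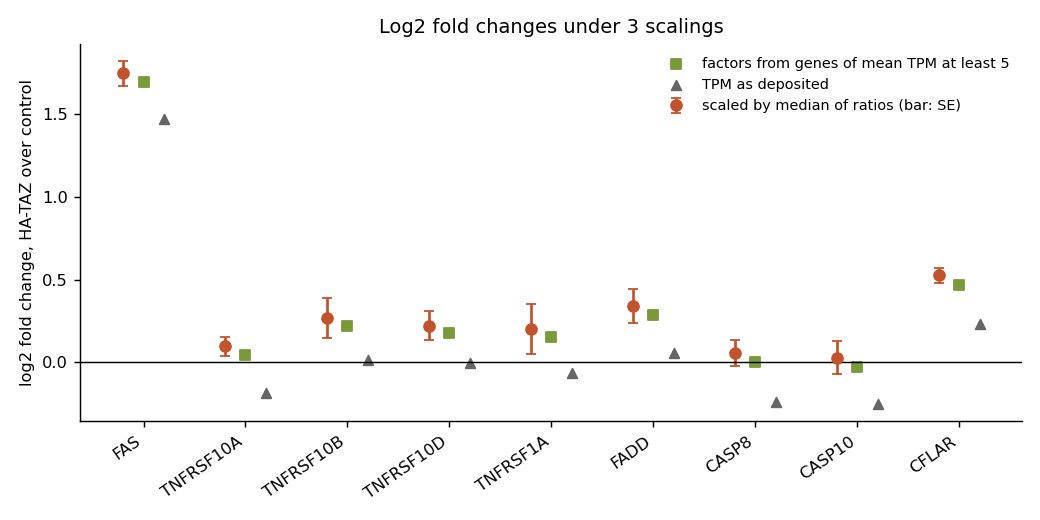
Log2 fold changes of HA-TAZ over control on log2(value + 1) for the 9 genes in the fit under 3 scalings; bars on the circles are standard errors. FAS and CFLAR stay above 0 in each, at 1.47 to 1.75 and 0.23 to 0.52, while TNFRSF10A, TNFRSF10D, TNFRSF1A, CASP8 and CASP10 lie below 0 with TPM as deposited.

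Of the 9 genes in the fit, FAS and CFLAR were called higher (limma, Benjamini-Hochberg adjusted p under 0.05) and none lower, where 4.67% of all tested genes were called higher and 2.63% lower. Because the set was chosen on this contrast, nothing is read from the count, nor from those that follow. In scaled TPM, FAS, TNFRSF10D, FADD and CFLAR were higher without overlap and 5 genes overlapped, where 20.2% of all tested genes were higher and 18.3% lower without overlap, 38.5% in all. As deposited, FAS and CFLAR were higher and TNFRSF10A lower without overlap, where 4.41% of tested genes were higher and 43.6% lower, 48.0% in all. Among the transcripts, 9 of 80 with statistics in the authors' deposited table had a q-value under 0.05, all with a positive effect, where 4.08% of all transcripts with statistics did so with a positive effect and 1.6% with a negative one, 5.68% together. Of these 9, 2 belonged to FAS (FAS-204 and FAS-206), 1 to FADD and 6 to CFLAR. In limma on transcripts, 3 of 44 with a mean of at least 1 TPM were called, all higher, where 0.432% of all tested transcripts were called higher and 0.534% in either direction. They were FAS-204, CFLAR-203 and another CFLAR transcript (ENST00000439154.2).

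Genes around this pathway were taken from a list of 43 ligands, other receptors, adaptors, effectors and necroptosis genes that holds none of the 10 genes. The list was drawn up with earlier results of these data known, so its counts and p-values are a description. Of the 43 genes, 32 passed the filter. The fit called 4 higher and 0 lower (limma, Benjamini-Hochberg adjusted p under 0.05), 12.5% of those tested, where 7.29% of all tested genes were called. The unadjusted p-value was under 0.05 for 12 genes that were higher and 1 that was lower, 40.6% of the list, where this held for 30.7% of all tested genes. With TPM as deposited limma called TNFAIP3 and PEA15 higher, and APAF1 and CASP8AP2 lower (Benjamini-Hochberg adjusted p = 0.0476 and 0.0499). These 4 are 12.5% of the list, where 14.7% of all tested genes were called in that fit. The median log2 fold change of the 32 was 0.12, against −0.03 over all tested genes, and −0.15 against −0.27 with TPM as deposited.

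Of 5 ligands, TNFSF10 alone passed the filter. FASLG, the ligand of FAS, was at 0.0355 to 0.0580 TPM in HA-TAZ and 0.0495 to 0.0799 TPM in control libraries, and TNF was at or below 0.00599 TPM in every library. TNFSF10, which encodes TRAIL, was at 1.29, 1.73 and 1.52 TPM in HA-TAZ 1 to 3 and 1.37, 1.12 and 1.16 TPM in control a to c, and was not called (limma, Benjamini-Hochberg adjusted p = 0.0862). LTA, which encodes lymphotoxin alpha, had a mean of 0.962 TPM, just under the filter. It was at 1.49, 1.30 and 1.20 TPM and at 0.694, 0.560 and 0.526 TPM, higher without overlap as deposited and after scaling. TNF and LTA are split over several gene IDs of alternative haplotypes, so their values are uncertain. Of 7 other receptors, TNFRSF10C and TNFRSF21 alone passed the filter, and neither was called.

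Adaptors and regulators held 3 of the 4 calls, out of 13 tested. TNFAIP3, a ubiquitin-editing brake on NF-kB signalling, was at 37.8, 41.3 and 32.5 TPM in HA-TAZ 1 to 3 and at 22.2, 20.9 and 19.4 TPM in control a to c, and rose by 1.09 on the log2 scale (SE 0.08, limma, Benjamini-Hochberg adjusted p = 0.00480). PEA15, a death effector domain protein, was at 96.8, 108 and 97.9 TPM and at 76.7, 78.0 and 75.4 TPM, and rose by 0.69 (SE 0.06, adjusted p = 0.00702 by limma). CYLD, a deubiquitinase that acts on the TNF receptor complex, was at 31.1, 37.6 and 31.5 TPM and at 27.1, 27.4 and 26.6 TPM, and rose by 0.58 (SE 0.07, adjusted p = 0.0146 by limma). The libraries did not overlap for any of these 3 genes. CYLD lost its call with TPM as deposited (limma, adjusted p = 0.0666) and without HA-TAZ 1, HA-TAZ 2, HA-TAZ 3 or control b in turn (limma, adjusted p from 0.0536 to 0.0667). RIPK1, TRADD and TRAF2 were not called. BIRC2, an inhibitor of apoptosis protein that binds TRAF2, was listed at 0 in every library.

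Downstream, 1 of 14 tested genes was called. CYCS, which encodes cytochrome c, was at 132, 143 and 122 TPM in HA-TAZ 1 to 3 and at 141, 135 and 127 TPM in control a to c, with overlap as deposited. Its log2 fold change was 0.28 after scaling (SE 0.05, limma, Benjamini-Hochberg adjusted p = 0.0423) and −0.023 with TPM as deposited, so its direction rests on the scaling. Its call was also lost without any 1 of the 6 libraries (limma, adjusted p from 0.0702 to 0.129). BID, which carries the signal of CASP8 to mitochondria, had a log2 fold change of 0.53 (SE 0.11) and missed the threshold (limma, Benjamini-Hochberg adjusted p = 0.0517). CASP6 had a log2 fold change of 0.08 (SE 0.11) and was not called. APAF1, the scaffold of the mitochondrial caspase complex, had a log2 fold change of −0.50 (SE 0.16) and was not called (limma, adjusted p = 0.104). Of the necroptosis genes, MLKL and ZBP1 were tested and not called, and RIPK3 was at 0.0903 and 0.163 TPM on average in HA-TAZ and control libraries.

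The 5 tested genes whose centred log2 profile over the 6 libraries lay closest to that of FAS were IFIT3, IL23A, an alternative haplotype copy of HLA-DRA, HLA-DQA1 and C4A. Their root mean square distances to FAS were 0.0640, 0.114, 0.117, 0.126 and 0.128 on the log2 scale. IFIT3, an interferon-induced protein, was at 4.92, 4.92 and 4.30 TPM in HA-TAZ 1 to 3 and 0.977, 0.864 and 0.806 TPM in control a to c. IL23A, a cytokine subunit, was at 21.6, 23.9 and 18.6 TPM and 8.10, 8.01 and 7.02 TPM. The 6 libraries form 2 groups, so such a distance mainly reflects the difference between the groups and is a description. Copies of HLA and C4 genes share reads, and their values are uncertain.

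Promoter windows of RefSeq (GRCh38.p14, 250 bases before to 50 after a start) were searched on both strands for 3 strings of letters. The NF-kB type was GGG, any 3 bases and TTCC, the TEAD type was GGAATG, and the interferon response type was GAAA, any 2 bases and GAAA. The table held 13 windows for FAS, TNFRSF1A, TNFRSF1B, FADD, CASP8 and CFLAR, and none for TNFRSF10A, TNFRSF10B, TNFRSF10D and CASP10. None of the 3 FAS windows held any of the strings. The NF-kB string was in 1 of 4 CFLAR windows and in 6.52% of all 35116 windows. It lay 97 bases before the start, at chr2:201118609-201118638 with its surroundings, plus strand, and is shown in capitals as the single NF-kB match among the 13 windows.
CFLAR window: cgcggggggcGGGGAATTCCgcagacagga

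The TEAD string was in none of the 13 windows and in 14.0% of all windows. The interferon response string was in the TNFRSF1B window, in 1 of 3 CASP8 windows and in 3.57% of all windows. A match is a description of letters and not a measured site.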

How the data were processed

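The members and lists were chosen with earlier results of these data known. The authors deposited TPM per transcript for 6 libraries, which add up to the same sum in each, so the depth of a single library is unknown and precision was judged from the spread over 3 libraries. Per the submitters' processing notes, kallisto 0.46.0, sleuth 0.30.0 and GRCh37 were used, with no roles given. The authors' deposited comparison gives, per the file headers, p-values and q-values, an effect on a natural log scale, its standard error, and a mean natural log of scaled estimated counts. Sums of the exponentiated means gave estimated counts.

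TPM was summed per gene ID and divided by median-of-ratios factors from 21512 genes above 0 in all libraries (0.866 to 0.967 for HA-TAZ, 1.06 to 1.21 for controls). The 22651 genes averaging at least 1 TPM were fitted with limma 3.58.1 (intensity trend, log2(scaled TPM + 1), R 4.3.3), with two-sided tests at an adjusted p (Benjamini-Hochberg) under 0.05. Fold changes understate low genes. The fit was also run on simulated data drawn from its own means and spread. Such data meet the assumptions of the fit, so nothing is read from that run. Nothing says that libraries came from separate cultures, so p-values measure only the spread between these libraries, which may be technical. Within groups, correlations across genes were 0.949 to 0.967, and no 2 libraries had identical values. An exact test of 3 against 3 cannot go below 0.1 and was not used.

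Named were all 10 genes, their transcripts with a mean of at least 1 TPM (at most the 3 highest outside FAS), each called gene of the pathway list and the 5 genes most like FAS. FAS-205, FAS-206, CFLAR-203, CFLAR-208, ENST00000439154.2, BID, APAF1, BIRC2 and other uncalled pathway genes were chosen with their values in view. So were the overlapping genes, the ratios and the forms of CFLAR. Tables and plots were made in Python 3.11.15 (pandas 2.3.3, matplotlib 3.10.9).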

Additional observations from a re-analysis of the deposited data

How the results depend on the processing

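The log2 fold change of FAS was 1.75, 1.47 with TPM as deposited and 1.87 with a pseudocount of 0.1, and ran from 1.69 to 1.80 over the fits that each left out 1 library. CYCS turned to −0.0233 with TPM as deposited. The 1652 called genes (64.0% higher) became 3329 with TPM as deposited (7.84% higher), 691 with no filter on level (72.4% higher) and 758 with limma without trend, and numbered 1492 with factors from genes of at least 5 TPM (48.4% higher). With a library left out they were between 117 (HA-TAZ 1) and 435 (control c). The 307 called transcripts became 120 with TPM as deposited, 108 with no filter, 1655 at a mean of at least 5 TPM and 156 without trend, and 12 to 92 with a library left out. The 4 called pathway genes became 7 at a mean of at least 5 TPM, and 2 to 4 with a library left out, with 2 without HA-TAZ 1, HA-TAZ 2, HA-TAZ 3 or control b. A q-value limit of 0.01 kept 3343 of 6220 transcripts of the authors' deposited table. Fits with fewer libraries have fewer samples, and the cause of the other moves was not tested. Summing over gene IDs of a symbol left the 10 genes as they were, since each had 1. No paired analysis was possible because scr, the heading of the numbered control columns, matches none of the labels, and a column of that group cannot be tied to 1 sample. The depth of single libraries is unknown. FAS-205 and CFLAR-203 had about 6.4 and 10.01 estimated counts. These are means on a log scale over all 6 libraries, which controls at or near 0 pull down.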
